A study of Homo sapiens with 6 samples.

Results

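The transcripts of FLT3, KIT and 8 receptors for myeloid cytokines (CSF1R, CSF2RA, CSF2RB, CSF3R, IL3RA, IL6R, IL10RA and IL17RA) were followed in MOLM-14 cells after short exposure to cortistatin A (CA). They were taken as all probe sets whose gene symbol in the platform annotation is, or lists, 1 of the 10 names. This gave 10 genes of 19775 and 19 probe sets of 54613 that were not controls, and 0 of the 19 listed a second symbol. Of the 10 genes, 6 had 1 probe set and 4 had several. MOLM-14 is an established human acute myeloid leukaemia line with a rearranged MLL gene (MLL-AF9), and CA is an alkaloid isolated from a marine sponge that blocks CDK8 and CDK19, the kinases of the Mediator complex. In each group 3 wells of this 1 line were incubated for 3 h, with 25 nM CA or with the solvent dimethyl sulfoxide (DMSO). The medium held serum, and the labels name no added cytokine. RNA of each well was read on 1 Human U133 Plus 2.0 array (Affymetrix). The comparison asks how the transcripts of these growth factor receptors stood after the kinases had been inhibited for 3 h.

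These receptors let blood cell precursors read the growth factors around them. FLT3, KIT and CSF1R are receptor tyrosine kinases of class III, which dimerise on their ligand and phosphorylate themselves. The others have no kinase of their own. The colony-stimulating factor and interleukin receptors recruit JAK kinases and STAT factors, often as a private ligand-binding chain that shares a signalling chain with its relatives, while IL17RA signals through the adaptor ACT1. In normal blood formation KIT and FLT3 mark stem cells and early progenitors and CSF1R marks monocytes and macrophages, and FLT3 is among the most often mutated genes of acute myeloid leukaemia.

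All values are log2 expression values as the authors deposited them, errors are SD over 3 arrays, and changes are CA minus DMSO with their standard error (SE) or 95% confidence interval. Changes were tested with limma, and a probe set was called at a Benjamini-Hochberg adjusted p under 0.05 over all 54613. The arrays had medians between 5.03 and 5.08 and correlated with each other at 0.996 to 0.998. The array of CA replicate 3 stood apart, at 33.8 on the first principal component against -12.8 to 6.44 for the others. Of the markers of myeloid cells, LYZ, PTPRC and CSTA had DMSO means of 12.46, 10.59 and 12.16, the highest of the list. The median DMSO level of the 9 measured markers was 6.32, with SPI1 at 5.49, CD86 at 5.02, FCGR1A at 4.90 and ANPEP at 4.15. By the mean over all 6 arrays, 8 of the 9 lay above the median of all probe sets, 5.05, with ANPEP below it. Among other lineages, DMSO means reached 9.30 for a NK cell marker and 7.08 for a fibroblast marker. No marker of T, B or NK cells, of red cell and platelet precursors, of epithelium or of fibroblasts passed in limma between CA and DMSO, with 1 higher and 1 lower by unadjusted p under 0.05. The wells are not described as separate cultures, so the spread behind each p-value may be technical only. In such bulk samples, fewer cells with a transcript and less transcript per cell cannot be told apart.

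Promoter windows were printed for 4 receptors because these carry, or lack, the short motifs of blood cell factors that are classically tied to this family. Each is the 250 bases before the gene's start, 5′ to 3′ on the gene's strand, from RefSeq with build GRCh38.p14. The windows lie at chr13:28100577-28100826 (minus strand) for FLT3, chr5:150086555-150086804 (minus strand) for the downstream of 2 CSF1R starts, chrX:1268564-1268813 (plus strand) for CSF2RA and chrX:1336535-1336784 (plus strand) for IL3RA. Capitals mark matches on either strand to any of 4 motifs. The motif of PU.1, the myeloid factor encoded by SPI1, was searched as GAGGAA. That of the RUNX factors, which act in stem cells and many blood lineages, was searched as TGTGGT. That of C/EBP factors, which drive granulocyte and monocyte genes, was searched as TTGCNNAA. That of GATA factors, which act in stem cells, red cells and mast cells, was searched as AGATAA.
FLT3: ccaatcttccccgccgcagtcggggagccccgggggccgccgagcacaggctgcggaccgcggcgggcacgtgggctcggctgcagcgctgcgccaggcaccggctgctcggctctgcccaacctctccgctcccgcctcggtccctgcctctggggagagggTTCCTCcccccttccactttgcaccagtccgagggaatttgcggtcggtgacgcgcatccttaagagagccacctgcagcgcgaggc
CSF1R: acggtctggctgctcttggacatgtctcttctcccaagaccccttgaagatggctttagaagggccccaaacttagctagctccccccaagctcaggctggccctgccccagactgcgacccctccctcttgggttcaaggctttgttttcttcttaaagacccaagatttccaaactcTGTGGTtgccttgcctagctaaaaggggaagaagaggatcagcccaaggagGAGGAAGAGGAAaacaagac
CSF2RA: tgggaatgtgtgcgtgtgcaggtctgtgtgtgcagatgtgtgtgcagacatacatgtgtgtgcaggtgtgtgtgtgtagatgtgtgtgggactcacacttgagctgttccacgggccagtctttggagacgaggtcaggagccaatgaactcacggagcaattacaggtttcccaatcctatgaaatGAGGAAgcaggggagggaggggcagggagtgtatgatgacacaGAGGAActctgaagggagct
IL3RA: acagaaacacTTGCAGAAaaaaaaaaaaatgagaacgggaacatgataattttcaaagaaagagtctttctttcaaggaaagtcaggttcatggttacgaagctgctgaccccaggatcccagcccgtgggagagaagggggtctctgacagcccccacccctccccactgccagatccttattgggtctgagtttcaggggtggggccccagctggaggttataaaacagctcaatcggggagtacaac

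The CSF1R window held GAGGAA 2 times, at 20 to 15 and at 14 to 9 bases before the start, and TGTGGT at 71 to 66 bases before it. The CSF2RA window held GAGGAA at 63 to 58 and at 20 to 15 bases before the start. FLT3 had 1 such match, on the other strand at 87 to 82 bases, in a window of 72.0% G and C. IL3RA had none, and its 1 match was to TTGCNNAA at 240 to 233 bases. Windows were found for 8 of the 10 genes (CSF2RB and IL17RA had no entry), 10 windows in all. GAGGAA was in 6 of the 10, TGTGGT in 1, TTGCNNAA in 3 and AGATAA in 1, where 23.6%, 11.0%, 9.1% and 9.2% of all 35116 windows hold them. A match describes letters and does not show binding.

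After 3 h of CA the receptor tyrosine kinase FLT3, the granulocyte colony-stimulating factor receptor CSF3R and the interleukin 6 receptor IL6R stood close to their DMSO levels at their brightest probe sets. The largest differences were in IL17RA, at 1.25-fold to 1.34-fold its DMSO level on 3 of its 4 probe sets, and in IL3RA, at 1.19-fold. CSF2RB, the chain that IL3RA signals with, was at 0.852-fold. None of the 19 probe sets passed in limma, where 0.22% of all 54613 did: 116 were higher in CA (0.212%) and 4 lower (0.00732%). The smallest adjusted p among the 19 was 0.0789, at an IL17RA probe set.

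By unadjusted limma p under 0.05, 6 of the 19 probe sets were higher in CA and 1 was lower, against 4.91% and 3.71% of all probe sets. The 6 came from IL17RA, CSF2RA and IL3RA only. In 7 of the 19 all 3 CA values lay above all 3 DMSO values and in 1 they lay below, against 8.96% and 6.55% of all probe sets. Of those 7, 3 belonged to IL17RA and 2 to CSF2RA, so these are not 7 independent genes. Counted once per gene at the brightest probe set, 4 of the 10 genes did not overlap and were higher, and 1 was lower. Over 19775 genes the shares were 11.8% and 7.53%. By unadjusted limma p under 0.05, 3 of the 10 genes were higher and 1 was lower, against 5.84% and 3.64% of those genes. The median change of the 19 probe sets was 0.10, against -0.0011 over all probe sets. Of the 19, 14 had a change above 0, as had 49.6% of all probe sets. These 14 again hold several probe sets of the same gene. In brightness, 17 of the 19 lay above the median of all probe sets. Shares over all probe sets, dim ones included, are therefore not like for like.

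**Figure D1:**
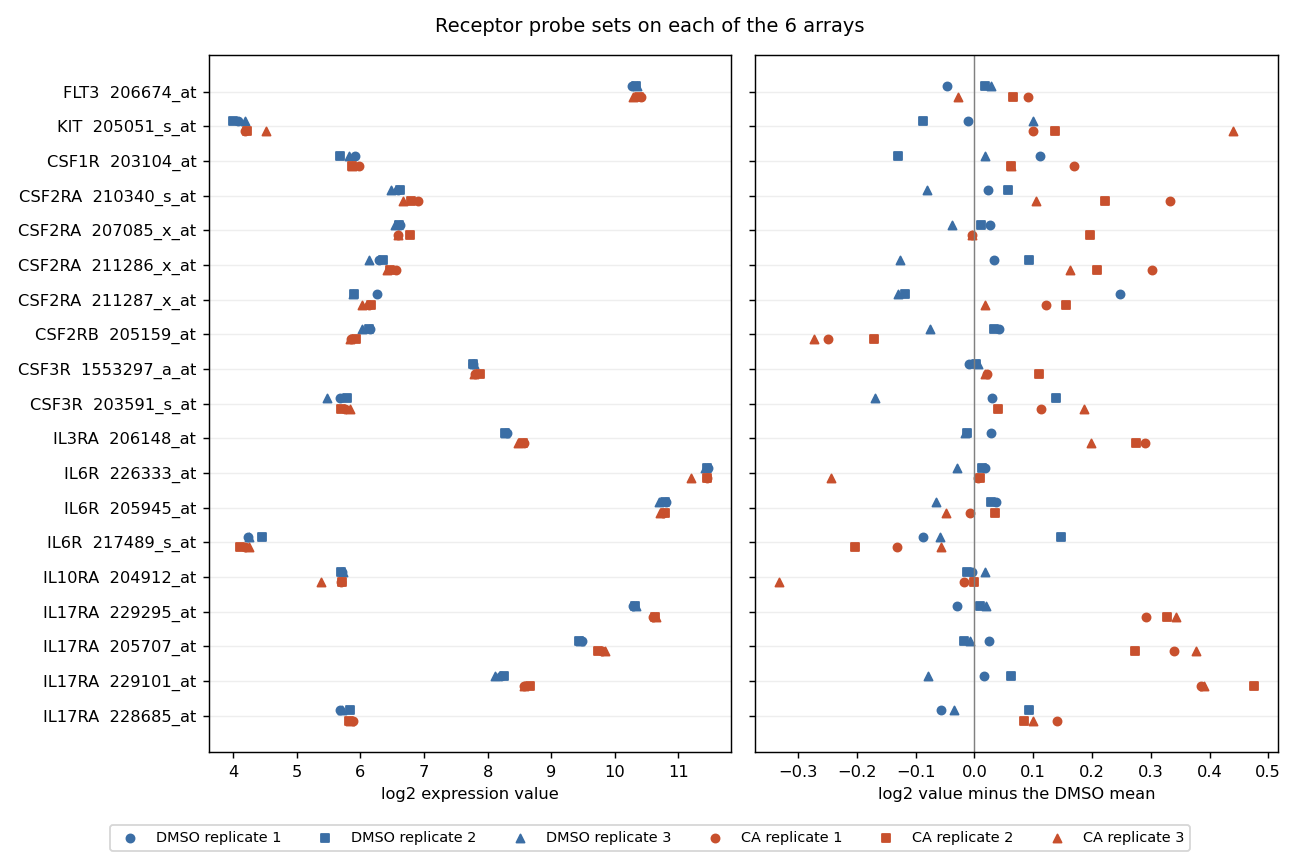
Values of the 19 receptor probe sets on each array (x axes: log2 value, left, and the same value minus the probe set's DMSO mean, right). Blue symbols are the 3 DMSO arrays, red symbols the 3 CA arrays, and the symbol shape gives the replicate number. At 3 IL17RA probe sets and at IL3RA the red symbols lie to the right of all blue ones, at CSF2RB to the left, and at FLT3 they overlap.

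FLT3, whose ligand drives the growth of early progenitors, had 1 probe set, 206674_at. Its log2 values were 10.27, 10.34 and 10.35 on the DMSO arrays and 10.41, 10.38 and 10.29 on the CA arrays. The groups overlapped: CA replicate 3 lay below 2 of the DMSO arrays and the other CA arrays lay above all of them. The means were 10.32 ± 0.04 and 10.36 ± 0.06 (n = 3 each), a change of 0.04 (SE 0.06, limma adjusted p = 0.871). The 95% confidence interval of the fold ran from 0.934 to 1.14, so that a larger fall or rise lay outside it. FLT3 was well above the median of the arrays in every sample.

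KIT, the receptor for stem cell factor, was dim, with a mean below the median of all probe sets in both groups. Its values at 205051_s_at were 4.07, 3.99 and 4.18 in DMSO and 4.18, 4.21 and 4.52 in CA. The CA arrays reached down to the highest DMSO array, and CA replicate 3 lay highest. The change was 0.23 (95% confidence interval -0.020 to 0.47, limma adjusted p = 0.609), and without CA replicate 3 it was 0.12. At this brightness a difference in KIT was not resolved.

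CSF1R, the receptor through which monocytes and macrophages survive, had values of 5.92, 5.68 and 5.82 in DMSO and 5.98, 5.87 and 5.87 in CA. Only CA replicate 1 lay above all DMSO arrays. The change was 0.10 (-0.085 to 0.28, limma adjusted p = 0.759), with 0.03 without DMSO replicate 2 and 0.15 without DMSO replicate 1. Its downstream promoter window, printed above, has the GAGGAA and TGTGGT letters, and its upstream window has neither. SPI1, which encodes the factor that binds the first of these motifs, had means of 5.49 ± 0.10 in DMSO and 5.37 ± 0.04 in CA. All its CA arrays lay below all DMSO arrays (limma adjusted p = 0.664), as at 7.53% of all 19775 genes.

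**Figure D2:**
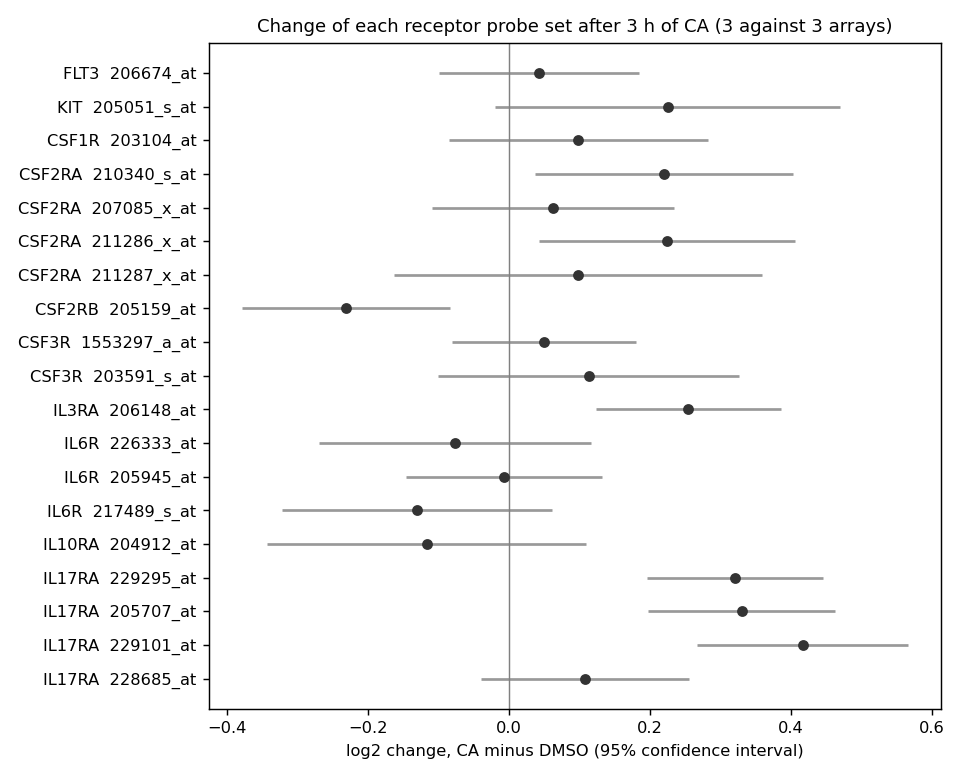
Change of each receptor probe set (x axis: log2 CA minus DMSO; points are limma estimates from 3 against 3 arrays, bars their 95% confidence intervals). The intervals of 3 IL17RA probe sets, IL3RA, 2 CSF2RA probe sets and CSF2RB leave out 0, but 0 of the 19 passed after adjustment.

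The receptors for interleukin 3 and granulocyte-macrophage colony-stimulating factor share 1 signalling chain, CSF2RB, and each has an alpha chain of its own, IL3RA (CD123) and CSF2RA (CD116). IL3RA at 206148_at had values of 8.31, 8.27 and 8.27 in DMSO and 8.57, 8.56 and 8.48 in CA. All CA arrays lay above all DMSO arrays. The means were 8.28 ± 0.02 and 8.54 ± 0.05 (n = 3 each), a change of 0.25 (SE 0.06) or 1.19-fold (95% confidence interval 1.09 to 1.31). It had an unadjusted p of 0.00251 and an adjusted p of 0.232 in limma. In limma fitted robustly with a trend on intensity it passed with an adjusted p of 0.0217, and over all 13 alternatives its adjusted p ran from 0.0217 to 0.626 with the change between 0.24 and 0.28.

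CSF2RB at 205159_at had values of 6.14, 6.13 and 6.02 in DMSO and 5.85, 5.93 and 5.83 in CA. Here all CA arrays lay below all DMSO arrays, and CSF2RB was the 1 receptor of the set with this pattern. Its mean was 6.10 ± 0.07 in DMSO and 5.87 ± 0.05 in CA, a change of -0.23 (-0.38 to -0.084) or 0.852-fold, with an unadjusted p of 0.00747 and an adjusted p of 0.351 in limma. The log2 difference of IL3RA minus CSF2RB within an array shifted by 0.49 between the groups, with SDs of 0.05 in DMSO and 0.05 in CA. The pair was chosen after its values were seen, so the shift was not tested.

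CSF2RA had 4 probe sets, and differences between them were not tested. At 210340_s_at the values were 6.59, 6.62 and 6.48 in DMSO and 6.90, 6.79 and 6.67 in CA, and at 211286_x_at they were 6.30, 6.36 and 6.14 against 6.56, 6.47 and 6.43. In both all CA arrays were above all DMSO arrays, with changes of 0.22 each and limma adjusted p of 0.504 and 0.491. The other probe sets, 207085_x_at and 211287_x_at, overlapped between the groups, with changes of 0.06 and 0.10 (adjusted p = 0.839 and 0.834). For 207085_x_at the sign turned to -0.0041 without CA replicate 2. For 211287_x_at the change was 0.22 without DMSO replicate 1, as large as at the first pair, and 0.03 without DMSO replicate 3. Names ending in _x_at mark probes that may also bind other sequences, and those ending in _s_at are shared by several transcripts. What each of the 4 binds here was not tested.

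CSF2RA and IL3RA are neighbours in the gene table, with no protein-coding gene between them, in the region shared by the X and Y chromosomes. On the other side of CSF2RA lies CRLF2, another cytokine receptor gene. CRLF2 was dim, at 4.27 ± 0.10 in DMSO and 4.34 ± 0.27 in CA (n = 3 each), with a change of 0.07 (-0.24 to 0.38, limma adjusted p = 0.904). Its wide interval includes the changes of both neighbours.

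CSF3R, the receptor that drives neutrophil formation, had 2 probe sets. At 1553297_a_at the values were 7.76, 7.78 and 7.78 in DMSO and 7.79, 7.88 and 7.79 in CA. All CA arrays lay above all DMSO arrays, yet by little: the change was 0.05 (-0.081 to 0.18, limma adjusted p = 0.832), a fold between 0.945 and 1.13. This probe set counts among the 7 without overlap because its DMSO arrays lay within a SD of 0.0079 of each other. At 203591_s_at the groups overlapped, and the change was 0.11 (adjusted p = 0.760), or 0.03 without DMSO replicate 3 and 0.18 without DMSO replicate 2.

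IL6R, the ligand-binding chain for interleukin 6, had 2 bright probe sets and 1 dim one. At 226333_at the values were 11.46, 11.46 and 11.41 in DMSO and 11.45, 11.45 and 11.20 in CA. CA replicate 3 was low and the other CA arrays lay among the DMSO arrays. The change was -0.076 (-0.27 to 0.12, limma adjusted p = 0.826), and 0.0079 without CA replicate 3. At 205945_at it was -0.0066 (-0.15 to 0.13, adjusted p = 0.984), with a sign that turned in 4 of 12 alternatives, median centring among them (0.0083). The dim 217489_s_at had a change of -0.13 (adjusted p = 0.704).

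IL10RA, the ligand-binding chain for the anti-inflammatory interleukin 10, had values of 5.71, 5.70 and 5.73 in DMSO and 5.70, 5.71 and 5.38 in CA. As at IL6R, CA replicate 3 was low and the other CA arrays lay among or next to the DMSO arrays. The change of -0.12 (-0.34 to 0.11, limma adjusted p = 0.769) became -0.0091 without CA replicate 3. LYZ, the lysozyme gene of myeloid cells, was also lowest on that array, at 12.04 against 12.37 to 12.48 on the others. The myeloid markers did not move as 1 there: ITGAM was lowest too, at 7.34, but ANPEP was highest, at 4.36. MPO, at 6.35, lay within the range of the other arrays. These markers were picked after their values were seen. At 11 of the 19 receptor probe sets CA replicate 3 lay farther from the mean of the other CA arrays than these lay from each other, as it did at 56.3% of all probe sets.

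IL17RA, the common chain of the receptors for the interleukin 17 cytokines, stood highest against DMSO. At its brightest probe set, 229295_at, the values were 10.28, 10.32 and 10.33 in DMSO and 10.60, 10.64 and 10.65 in CA. At 205707_at they were 9.49, 9.44 and 9.46 against 9.80, 9.74 and 9.84, and at 229101_at 8.21, 8.25 and 8.11 against 8.58, 8.67 and 8.58. On all 3, every CA array lay above every DMSO array, CA replicate 3 included. The folds were 1.25 (95% confidence interval 1.15 to 1.36), 1.26 (1.15 to 1.38) and 1.34 (1.20 to 1.48).

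These 3 IL17RA changes of 0.32, 0.33 and 0.42 had unadjusted p of 0.000486, 0.000596 and 0.000300 in limma. Their limma adjusted p of 0.0986, 0.106 and 0.0789 lay outside the threshold. Of the alternative fits that held it, 229295_at passed in 3 of 13, and 205707_at and 229101_at passed in 2 of 12 each. With 1 probe set per gene, 229295_at had an adjusted p of 0.0307 over 19775 genes. Without dim probe sets the 3 had adjusted p of 0.0180, 0.0220 and 0.0193, and in a robust fit with a trend on intensity 0.000260, 0.00111 and 0.00175. With any 1 array left out the changes were 0.31 to 0.33 for 229295_at, 0.31 to 0.36 for 205707_at and 0.38 to 0.45 for 229101_at, and none passed in those fits. None passed either with the replicate block (adjusted p 0.202 to 0.262), without _x_at, _s_at and _a_at probe sets (0.113 to 0.180), after median centring (0.0956 to 0.108) or with array weights (0.0589 to 0.0866).

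The other IL17RA probe set, 228685_at, was dimmer and gave a smaller value. It read 5.69, 5.84 and 5.71 in DMSO and 5.88, 5.83 and 5.84 in CA, and the groups overlapped. The change was 0.11 (-0.040 to 0.26, limma adjusted p = 0.681). Which IL17RA transcripts each probe set reads was not tested.

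**Figure D3:**
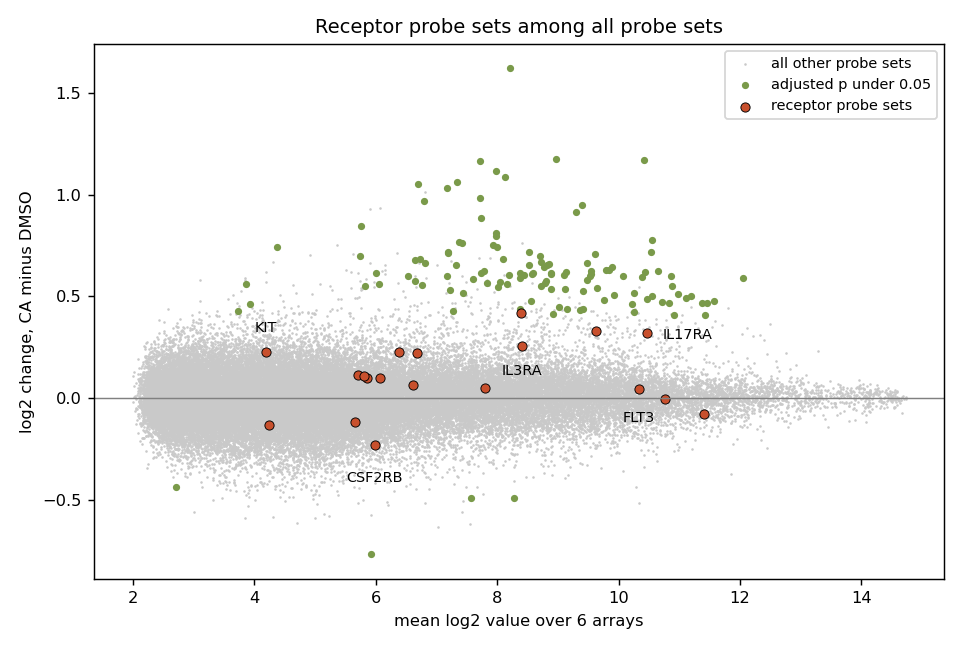
Change of every probe set against its brightness (x axis: mean log2 value over 6 arrays; y axis: log2 CA minus DMSO; grey points are all probe sets, green points the 120 with an adjusted p under 0.05, red points the 19 receptor probe sets). The points of 3 IL17RA probe sets lie at the lower edge of the green ones, and FLT3 lies near 0.

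The other genes of these pathways were read at the brightest probe set of each gene, where 0.359% of 19775 genes passed in limma (0.349% higher in CA, 0.0101% lower). By unadjusted p under 0.05, 5.84% were higher and 3.64% lower, and the median change was 0.0037. Both other class III kinases were measured, and 0 of 2 passed (median change -0.065). PDGFRB, a receptor for platelet-derived growth factor, had a change of -0.10 (adjusted p = 0.824). Of 12 measured ligands of the receptors 0 passed, with 0 higher and 1 lower by unadjusted p under 0.05, and the median was -0.040. That one was IL17A, dim at 2.75 ± 0.07 in DMSO and 2.59 ± 0.05 in CA (adjusted p = 0.542). KITLG, which encodes stem cell factor, was the brightest ligand, at 8.81 ± 0.10 in DMSO and 8.78 ± 0.07 in CA (adjusted p = 0.942), and 6 of the 12 ligands lay below the median of all probe sets.

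Of 7 partner chains 0 passed, and 1 was higher at an unadjusted limma p under 0.05, with a median of -0.048. IL10RB, the signalling partner of IL10RA, was 9.05 ± 0.01 in DMSO and 9.19 ± 0.02 in CA, a change of 0.15 (adjusted p = 0.501) with no overlap. IL6ST, the signalling chain that IL6R needs, had a change of -0.093 (adjusted p = 0.765). TRAF3IP2, which encodes ACT1, the adaptor of IL17RA, had a change of 0.05 (adjusted p = 0.822).

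Of 32 other cytokine receptors 0 passed in limma, with 7 higher and 0 lower by unadjusted p under 0.05, and the median change was 0.06. IL1RAP, the signalling partner of the interleukin 1 receptor, had the smallest p. Its values were 8.59, 8.60 and 8.64 in DMSO and 8.96, 8.95 and 8.87 in CA, with no overlap. The change was 0.31 (0.18 to 0.45, adjusted p = 0.119), and its second probe set gave 0.33 (adjusted p = 0.216). IL4R, named after its values were seen, was 1.20-fold its DMSO level (adjusted p = 0.270).

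Of 26 measured genes that relay or restrain these signals 0 passed in limma, with 8 higher and 0 lower by unadjusted p under 0.05, and the median was 0.02. GAB2, a docking protein that carries PI3K and SHP2 signals from KIT, FLT3 and the interleukin 3 receptor, had the smallest p, with values of 8.63, 8.59 and 8.67 in DMSO and 9.03, 9.01 and 9.02 in CA. Its change was 0.39 or 1.31-fold (95% confidence interval 1.20 to 1.44, adjusted p = 0.0581), with no overlap. The list holds 6 feedback inhibitors and survival kinases that STAT factors are known to induce, picked out here after their values were seen, and 0 of the 6 passed. CISH, a feedback inhibitor, was 1.26-fold its DMSO level (adjusted p = 0.0887), PIM2, a survival kinase, 1.25-fold (adjusted p = 0.123) and SOCS1 1.35-fold (adjusted p = 0.162), each without overlap. PIM1, a relative of PIM2, was 1.21-fold (adjusted p = 0.380), also without overlap. SOCS2 had a change of 0.0021 (adjusted p = 0.995) and SOCS3 of -0.014 (adjusted p = 0.977), and both overlapped.

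Of 9 measured transcription factors with known sites at these receptor genes, CEBPA passed. It rose by 0.48 or 1.39-fold (95% confidence interval 1.26 to 1.53, limma adjusted p = 0.0439), from 11.33 ± 0.05 to 11.81 ± 0.05 (n = 3 each). CEBPA drives granulocyte and monocyte formation. Unadjusted, 5 of the 9 were higher with a limma p under 0.05 and 0 lower, and the median change was 0.24. In 5 of the 9 all CA arrays lay above all DMSO arrays, and in 2, SPI1 among them, all lay below. Over all 19775 genes these shares were 11.8% and 7.53%. The call of CEBPA was lost with any 1 array left out, with the replicate block, and without _x_at, _s_at and _a_at probe sets.

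**Figure D4:**
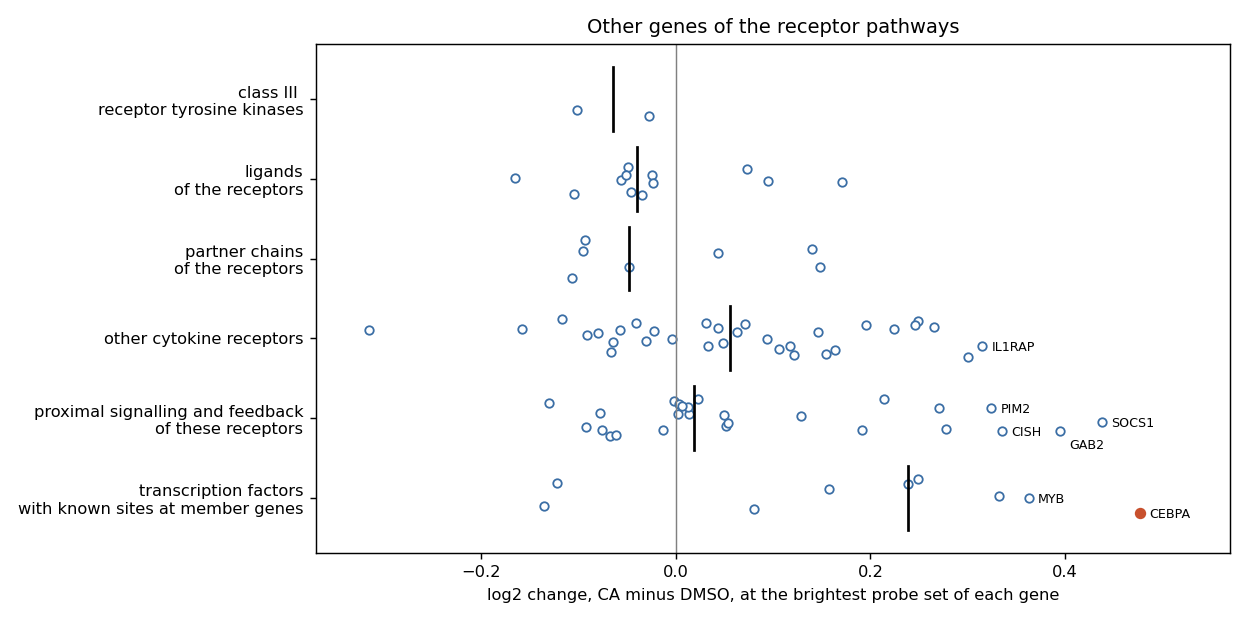
Changes of the other pathway genes (x axis: log2 CA minus DMSO at the brightest probe set of each gene; rows: lists; filled red points passed at an adjusted p under 0.05, open points did not; black bars are list medians). CEBPA is the 1 filled point, and the genes with an adjusted p under 0.17 are named.

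Pearson correlation with FLT3 over the 6 arrays was taken among 22748 probe sets of other genes with a mean above the median of all probe sets. The genes most like FLT3 were LYAR (0.997), VAPB (0.992) and ZNF618 (0.989). With 6 arrays such correlations are weakly determined, and 45 of the 22748 probe sets reached 0.95. The changes of LYAR, VAPB and ZNF618 were 0.06, 0.03 and 0.07, and none passed in limma.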

How the data were processed

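RNA of 3 DMSO and 3 CA samples was labelled with a 3' priming kit, per the labels' protocols. The authors deposited log2 expression values in 1 table, for which the submitters' processing notes name RMA and affy; versions, scan dates and batches were not given in the sources read. RMA scales arrays to each other and so hides a shift common to all genes. The values were used as deposited. Of 54675 probe sets 62 controls were left out. Limma 3.58.1 in R 4.3.3 (lmFit, eBayes, no block, two-sided) compared the groups over all 54613, unlike a fit with 1 probe set per gene, which was an alternative. The fit was tested on simulated data. Samples were grouped by title. Pathway genes were read at the probe set with the highest mean; named were each list's called genes or, with none, the one with the smallest p. Named outside this rule, for their place beside a receptor and with values seen, were SPI1, KITLG, IL6ST, TRAF3IP2, CRLF2, IL4R and 6 STAT target genes. Markers named for CA replicate 3 were also picked with values seen. The members, lists and rules were chosen with earlier results of these data known. Listed genes without a probe set of 1 symbol were not analysed here. Alternatives were the replicate block, each array left out, a trend with a robust fit, no dim probe sets, 1 probe set per gene, no _x_at, _s_at or _a_at probe sets, median centring and array weights.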

Additional observations from a re-analysis of the deposited data

How the results depend on the processing

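With any 1 array left out, 0 receptor probe sets passed the threshold, as with all 6 arrays, and 0 pathway genes against 1. Of all probe sets, 0 to 6 passed against 120. Receptor probe sets called higher numbered 0, but 4 in a robust fit with a trend on intensity (3 of IL17RA, and IL3RA), 3 without dim probe sets and 1 with 1 probe set per gene; none was called lower in any of the alternatives. Pathway genes called higher numbered 1, but 11, 6 and 6 in the same order, 2 with array weights and 0 without _x_at, _s_at and _a_at probe sets. Over all probe sets the calls were 740 with the trend, 398 without dim probe sets, 196 with array weights and 47 without _x_at, _s_at and _a_at probe sets. The cause of these differences was not tested. With the replicate block the calls were 1 over all probe sets, 0 pathway genes and 0 receptor probe sets. The labels give no meaning to the replicate numbers, and same-numbered arrays deviated together at correlations of 0.081 to 0.26, with 5 of 6 arrays most like their own number. Median centring gave 112 calls and shifted the median change of all probe sets to 0.014. Of the receptor probe sets, the sign turned in some alternative at 205945_at and 226333_at of IL6R and 207085_x_at of CSF2RA, none of them called.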
